A study of Mus musculus with 6 samples.

Results

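Duct sodium and potassium transport in the mouse submandibular salivary gland was followed through 7 genes: Scnn1a, Scnn1b and Scnn1g, which encode the alpha, beta and gamma subunits of the epithelial sodium channel ENaC, Fxyd2 and Atp1b1, which encode a small regulator and a beta subunit of the sodium pump, and Kcnk1 and Kcnma1, which encode potassium channels. They were chosen by symbol, and all 7 were among the 32285 genes of each of the 3 deposited matrices. The cells came from untreated and irradiated glands of female wild-type C57BL/6J mice. Epithelium was dissociated for 2 h, dead cells and cells bearing Cd3, Cd16/32, Cd31 or Cd45 were excluded, and RNA was measured in single cells with the 10x Genomics 3' chemistry, version 3.

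There were 3 groups. The basal sort held Epcam-positive, Cd49f-high cells of untreated glands. The untreated whole epithelium held Epcam-positive cells of untreated glands. The irradiated whole epithelium held Epcam-positive cells taken 90 days after 30 Gy of stereotactic radiation to the left submandibular gland. Each group was 1 library that pooled 3 mice, told apart by hashtag antibodies, so n is 3 mice per group throughout and the library cannot be told apart from the group. Every mouse is labelled as 8 to 10 weeks old, which cannot be the age of the irradiated mice at collection, so age may differ between the groups too.

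Salivary ducts take sodium and chloride out of the primary saliva and add potassium to it. ENaC in the apical membrane lets sodium enter the duct cell, the sodium pump in the basolateral membrane exports it in exchange for potassium, and potassium channels let that potassium leave again. Granular and striated ducts are the segments best known for this work in the rodent submandibular gland, whereas ionocytes are scattered duct cells rich in proton pump subunits that carry the transcription factor Foxi1.

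All 7 genes lie on autosomes of the mouse genome build GRCm38.p6. Scnn1g (ENSMUSG00000000216, chr7:121734420-121768482) and Scnn1b (ENSMUSG00000030873, chr7:121865038-121918728) are neighbours on chromosome 7, with 96556 bases between the end of the first and the start of the second, and both read along the plus strand. Scnn1a (ENSMUSG00000030340) lies apart from them at chr6:125314271-125344943. Fxyd2 (ENSMUSG00000059412) lies at chr9:45399709-45410278 and Atp1b1 (ENSMUSG00000026576) at chr1:164437099-164458355. Kcnk1 (ENSMUSG00000033998) lies at chr8:125993655-126030685 and Kcnma1 (ENSMUSG00000063142) at chr14:23292288-24005110.

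Promoters of 5 of the 7 genes, 250 bases before to 50 bases after the annotated start, were read from RefSeq on GRCm38.p6. The pair of neighbouring ENaC genes is shown because both fell after irradiation in ionocyte-like and granular duct-like cells, and the potassium channel pair because both rose in ionocyte-like cells. Capitals mark every match to the GC box GGGCGG on either strand, so that a match on the other strand reads CCGCCC.
Scnn1b, chr7:121864788-121865087, plus strand: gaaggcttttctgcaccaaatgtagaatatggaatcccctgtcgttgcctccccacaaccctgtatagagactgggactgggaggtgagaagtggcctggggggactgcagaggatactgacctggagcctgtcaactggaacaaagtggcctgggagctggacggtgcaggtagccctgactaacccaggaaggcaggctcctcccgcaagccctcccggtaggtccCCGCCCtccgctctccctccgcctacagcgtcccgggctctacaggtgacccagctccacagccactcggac
Scnn1g, chr7:121734229-121734528, plus strand: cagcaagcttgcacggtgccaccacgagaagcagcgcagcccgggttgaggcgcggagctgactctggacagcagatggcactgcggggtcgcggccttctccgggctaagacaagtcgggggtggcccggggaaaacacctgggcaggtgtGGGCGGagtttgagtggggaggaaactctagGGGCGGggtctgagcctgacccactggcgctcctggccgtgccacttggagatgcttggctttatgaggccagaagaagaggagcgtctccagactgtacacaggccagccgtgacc
Kcnk1, chr8:125994852-125995151, plus strand: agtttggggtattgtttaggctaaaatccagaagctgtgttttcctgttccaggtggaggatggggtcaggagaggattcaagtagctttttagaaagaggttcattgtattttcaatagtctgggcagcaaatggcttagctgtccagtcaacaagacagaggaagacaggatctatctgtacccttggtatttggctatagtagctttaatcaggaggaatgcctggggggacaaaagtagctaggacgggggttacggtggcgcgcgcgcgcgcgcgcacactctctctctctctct
Kcnma1, chr14:24004156-24004455, minus strand: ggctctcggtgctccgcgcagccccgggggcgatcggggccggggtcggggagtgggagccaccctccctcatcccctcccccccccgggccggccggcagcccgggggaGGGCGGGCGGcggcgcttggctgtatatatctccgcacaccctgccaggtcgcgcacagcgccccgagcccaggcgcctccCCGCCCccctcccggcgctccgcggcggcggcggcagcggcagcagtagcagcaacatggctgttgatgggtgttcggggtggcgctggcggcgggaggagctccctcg

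The Scnn1b promoter held 1 GC box and the Scnn1g promoter 2. The Kcnma1 promoter held 3, of which the first 2 overlap, and the Kcnk1 promoter held no match in this window. A GC box was present in 35.7% of the 32851 RefSeq promoters of the same length. Atp1b1, whose promoter is not shown, held 2 GC boxes and 2 matches to the CCAAT box, which 37.4% of promoters hold. Both strands of the 5 promoters were also searched for TATAAA (13.6% of promoters), the steroid receptor half-site AGAACA (19.0%), the forkhead core TGTTTAC (3.65%) and the E box CACGTG (7.15%), and none of these letters was found in them. GC content was 61.7% for Scnn1b, 64.7% for Scnn1g, 49% for Kcnk1 and 78% for Kcnma1, against a median of 52.7% over all promoters. The windows of Scnn1g, Kcnk1 and Kcnma1 follow RefSeq starts that lie inside the gene spans given above.

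The basal sort held 5044 barcodes with a median of 11985 UMIs (unique molecular identifiers, 1 per captured RNA molecule), the untreated whole epithelium 8277 with 6755, and the irradiated whole epithelium 3319 with 16995. Mitochondrial genes took over 20% of the UMIs in 49.2% of the untreated whole-epithelium barcodes, against 8.64% in the basal sort and 19.7% in the irradiated library. After cells with fewer than 500 genes or more than 20% mitochondrial UMIs, cells without a single hashtag and predicted doublets were removed, 3073, 2090 and 2062 cells remained. Totals per mouse ran from 7138692 to 27777541 UMIs. The libraries shared 15, 1 and 8 cell barcodes pairwise, of which 1 was kept in both libraries. The irradiated group was uneven over its mice, with 64, 433 and 153 ionocyte-like and 180, 599 and 233 granular duct-like cells in mice 1, 2 and 3. The split of untreated cells over mice depended on the hashtag rule. With HTODemux, mice 1, 2 and 3 held 203, 177 and 138 ionocyte-like and 134, 170 and 123 granular duct-like cells. With 1 hashtag required to hold at least 70% of a cell's hashtag UMIs, they held 12, 197 and 6, and 15, 248 and 20. SDs, overlaps and tests of untreated mice therefore rest on the HTODemux calls.

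Cells were grouped into 22 clusters without using the 7 genes, and a cluster was named from marker genes only. Ionocyte-like cells were cluster 16 (518 untreated cells, with 7 of 9 ionocyte markers raised, Ascl3 leading) and cluster 21 (650 irradiated cells, 8 of 9). Granular duct-like cells were cluster 18 (427 untreated cells, 11 of 11 granular duct markers raised) and, after irradiation, clusters 11 (916 cells, 6 of 11, led by Reg3g) and 12 (95 cells, 11 of 11, led by Ren1). Thus different clusters carried these classes in the untreated and irradiated libraries, and the granular duct-like cells of the latter were mostly cells with a part of the granular duct markers. Basal duct-like cells (2509 in the basal sort) raised between 7 and 9 of 10 basal markers, and the luminal duct-like cells of that sort (cluster 4, 115 cells, led by Orm1 and Krt6a) raised 8 of 10 basal markers beside 6 of 8 luminal ones. In the latter the basal markers summed to 11127 ± 1862 CPM and the luminal ones to 9755 ± 1609. In basal duct-like cells the basal markers summed to 7912 ± 821 CPM and the luminal ones to 2321 ± 180. The luminal duct-like cells were therefore higher in luminal markers than basal duct-like cells, but not lower in basal ones. No cluster was named striated duct: cluster 14, 210 untreated cells led by Kcnk3, Cox8b and Kcne1, stayed unnamed. With up to 40% mitochondrial UMIs allowed, a class of 227, 238 and 233 untreated cells was named striated duct-like, and the untreated granular duct-like cells numbered 47, 91 and 69 per mouse in place of 134, 170 and 123. Because classes are clusters of the same cells, levels between classes are given as a description with no test.

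Levels are given as CPM, the UMIs of a gene per 1000000 UMIs of all genes in the cells of 1 class and mouse, and levels of different genes are not set against each other. The order of classes is given on this plain scale. TMM scaling of the totals, with factors from 0.154 in an acinar-like to 1.87 in an intercalated duct-like sum, moved levels between classes and changed some orders. It raised acinar-like cells most. Changes among the highest classes are given for each gene, and those lower down only in part. The 3 ENaC genes were highest in ionocyte-like and granular duct-like cells and in the luminal duct-like cells of the basal sort, which also carried basal markers. They were low in basal duct-like, myoepithelial-like and acinar-like cells, and the order of the high classes differed between the genes.

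Scnn1a was highest in the luminal duct-like cells of the basal sort, at 181, 146 and 174 CPM in mice 1, 2 and 3. Untreated ionocyte-like cells followed at 120, 139 and 122 CPM, and untreated granular duct-like cells at 80.7, 76.9 and 66.0 CPM. On plain CPM the mice of these 3 classes did not overlap, whereas with TMM-scaled totals neighbouring classes overlapped (106 to 135 in luminal duct-like, 93.7 to 109.7 in ionocyte-like and 82.8 to 94.9 in granular duct-like cells). Basal duct-like cells held 14.5 ± 2.44 CPM (SD, n = 3) and intercalated duct-like cells 12.3 ± 0.784, with overlapping mice, and acinar-like cells held 1.00 ± 0.540.

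Scnn1b was highest in untreated ionocyte-like cells, at 341, 290.4 and 311 CPM. Untreated granular duct-like cells held 181, 179 and 199.6 CPM, and luminal duct-like cells 80.4, 88.9 and 51.0 CPM, with no overlap on plain CPM. With TMM-scaled totals the ionocyte-like (229 to 272) and granular duct-like cells (207 to 251) overlapped, and luminal duct-like cells stayed below both. All other classes were far lower: intercalated duct-like cells held 8.25 ± 4.63 CPM, basal duct-like cells 1.59 ± 0.519 and acinar-like cells 1.502 ± 0.663. With TMM-scaled totals acinar-like cells (13.7, 5.47 and 8.79) stood above basal duct-like cells (1.11, 2.06 and 1.52). In 208 myoepithelial-like cells it had 0 UMIs, which allows a level of up to 1.48 CPM.

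Scnn1g was the ENaC subunit found in the fewest luminal duct-like, granular duct-like and ionocyte-like cells, and neighbours among these classes were not separated. Luminal duct-like cells held 18.6, 28.4 and 21.4 CPM, untreated granular duct-like cells 13.6, 22.0 and 27.1, and untreated ionocyte-like cells 17.4, 15.7 and 18.05, with overlapping mice between neighbours. With TMM-scaled totals the untreated granular duct-like cells stood highest, at 15.6, 27.2 and 34.0. Luminal duct-like cells (13.8, 20.6 and 16.4) overlapped them, and untreated ionocyte-like cells (13.8, 12.4 and 13.8) lay below every granular duct-like mouse. Basal duct-like cells held 3.92 ± 1.52 CPM, and intercalated duct-like cells 0.174 ± 0.302 from a single UMI in 658 cells.

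Of the pump genes, Fxyd2 encodes the gamma regulator that tunes the pump's affinity for its ions. It reached 11228, 11078 and 10630 CPM in untreated ionocyte-like cells and 7076, 6137 and 5702 CPM in untreated granular duct-like cells. Luminal duct-like cells held 3467 ± 501 CPM, intercalated duct-like cells 607 ± 74.7, basal duct-like cells 250 ± 63.2 and myoepithelial-like cells 12.1 ± 9.69. Over these 6 classes no neighbours overlapped, on plain CPM or with TMM-scaled totals. Acinar-like cells held 73.3 ± 67.2 CPM, with a wide spread over the mice.

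Atp1b1, the beta subunit that the pump needs to fold and reach the membrane, was spread more evenly over the ducts. Its level was 2574, 2585 and 2490 CPM in luminal duct-like cells, 2206, 2110 and 2191 in untreated ionocyte-like cells and 1804, 1545 and 1544 in untreated granular duct-like cells. This order turned with TMM-scaled totals, at 2060, 1909 and 1938 in granular duct-like, 1919, 1876 and 1912 in luminal duct-like and 1757, 1666 and 1677 in ionocyte-like cells. Intercalated duct-like cells, in which Scnn1b was low and Scnn1g near 0, still held 1210 ± 132 CPM. Basal duct-like cells held 175 ± 16.2 CPM and acinar-like cells 82.3 ± 7.52, both below every duct class named here. With TMM-scaled totals acinar-like cells, at 510, 490 and 533, stood above basal duct-like cells at 164, 186 and 169.

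The potassium channel genes followed another order. Kcnk1, a leak channel of the K2P family, held 143, 129 and 133 CPM in basal duct-like and 135, 139 and 132 CPM in untreated ionocyte-like cells, and the mice of both classes overlapped. With TMM-scaled totals they did not, at 142, 124 and 135 in basal duct-like and 107, 109.7 and 101 in ionocyte-like cells, and acinar-like cells, with 21.5 ± 5.05 plain CPM, stood at 135, 107 and 156. On plain CPM, myoepithelial-like cells held 92.2 ± 24.2 CPM and intercalated duct-like cells 84.5 ± 12.9, above untreated granular duct-like cells at 38.9 ± 5.25 and luminal duct-like cells at 30.0 ± 9.52. Within the basal duct-like cells, cluster 0 (led by Ptn and Krt15) held 191, 184 and 180 CPM, while clusters 1 and 2 held between 82.8 and 109 CPM in each mouse.

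Kcnma1 encodes the pore of the BK channel, a large potassium channel opened by calcium and voltage. It was highest in ionocyte-like cells, at 187, 179 and 194 CPM untreated, and intermediate in intercalated duct-like cells at 88.8, 93.3 and 99.6 CPM. Untreated granular duct-like cells, where ENaC and Fxyd2 were high, held only 4.92, 6.85 and 6.15 CPM, and basal duct-like cells 28.7 ± 2.06. Acinar-like cells held 4.69 ± 1.48 CPM. With TMM-scaled totals they stood at 18.8, 36.9 and 31.6, above untreated granular duct-like cells at 5.62, 8.46 and 7.72. Of the clusters without a name, cluster 14 held 33.6 ± 12.1 CPM of Kcnma1 beside 7976 ± 371 of Fxyd2, 108 ± 13.6 of Scnn1b and 99.3 ± 3.08 of Kcnk1. Cluster 13, 102 irradiated cells with 7 of 9 ionocyte markers raised but a median of only 2287 UMIs, held 1653 ± 384 CPM of Kcnma1 and stays outside the ionocyte-like class.

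**Figure D1:**
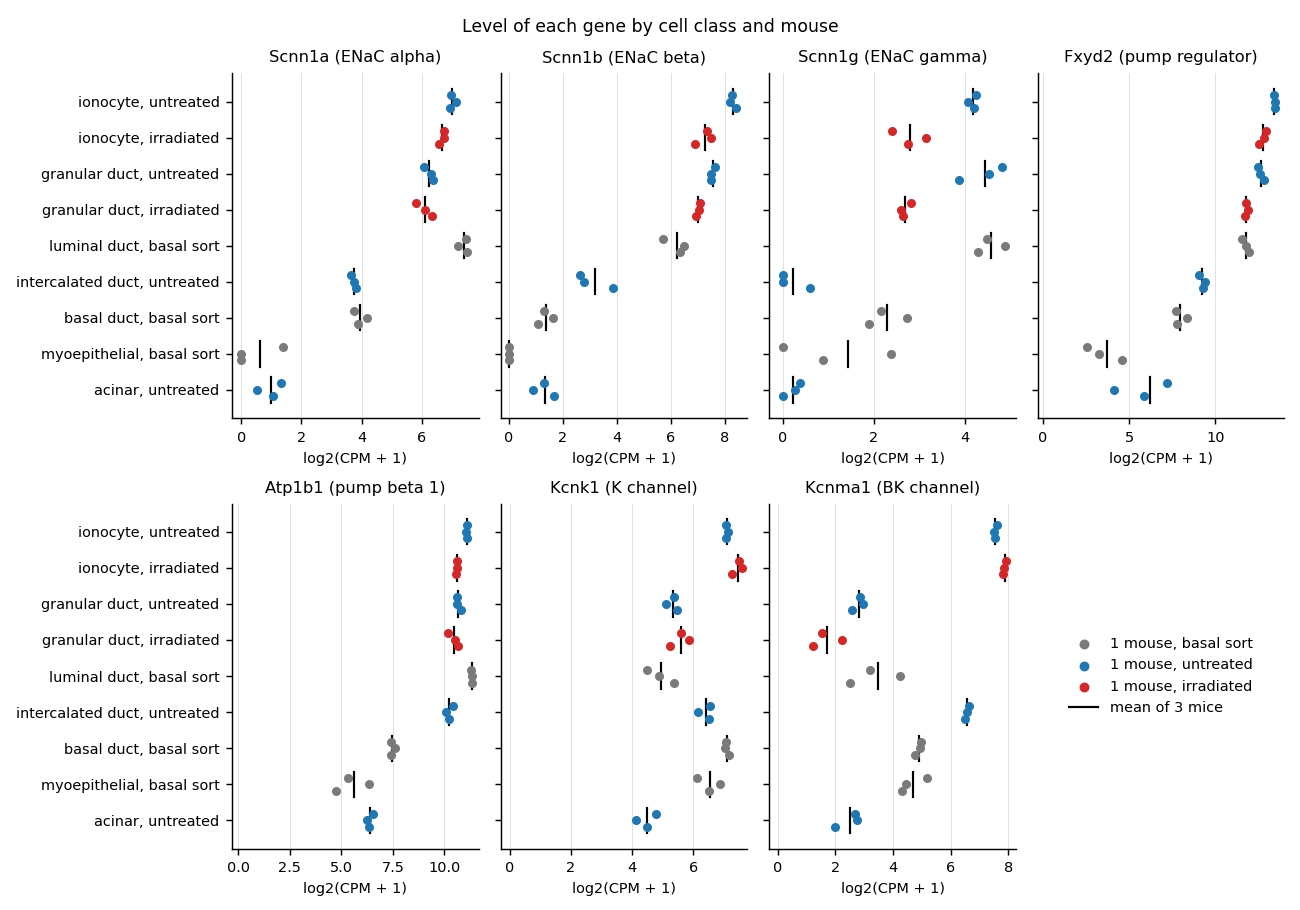
Level of each gene as log2(CPM + 1) (horizontal axis, starting at 0) in 9 classes and groups; points are mice, coloured by library, and vertical lines are the mean CPM of 3 mice. On this plain CPM scale Scnn1b and Fxyd2 peak in untreated ionocyte-like cells, Scnn1a and Atp1b1 in luminal duct-like cells, and Kcnk1 and Kcnma1 in irradiated ionocyte-like cells.

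At least 1 UMI of Scnn1b was found in 90.2 ± 3.44% of untreated ionocyte-like cells (median 11121 UMIs) and in 89.7 ± 1.78% of untreated granular duct-like cells (median 19163). Acinar-like cells, which are not known for ENaC, had one in 12.9 ± 3.66% at a median of 84640 UMIs. With every cell thinned to 2000 UMIs these shares were 48.7 ± 3.84%, 29.9 ± 6.82% and 1.88 ± 1.63%, leaving out 10, 1 and 0 shallower cells. Scnn1a was found in 72.3 ± 4.98% of untreated ionocyte-like, 72.9 ± 4.32% of granular duct-like and 8.34 ± 3.08% of acinar-like cells before thinning. Kcnma1 was found in 83.2 ± 4.95%, 8.95 ± 1.56% and 38.2 ± 11.2% of the same classes before thinning, and in 29.1 ± 2.82% and 1.61 ± 0.733% of the ionocyte-like and granular duct-like cells after it, where acinar-like cells had 0 of 109, which allows up to 2.75%.

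UMIs of all 3 ENaC subunits in 1 cell were found in 21.6 ± 6.07% of untreated granular duct-like cells and 11.6 ± 1.61% of untreated ionocyte-like cells. The pair Scnn1a and Scnn1b was found together in 66.7 ± 3.37% and 66.8 ± 4.44%. Scnn1g, the least often seen subunit, had UMIs in 28.4 ± 7.09% and 16.9 ± 1.80%. In luminal duct-like cells of the basal sort the share with all 3 was 7.25 ± 1.26%. Among 2509 basal duct-like cells it was 0, which allows a share of up to 0.120%. After irradiation it was 7.73 ± 1.19% in granular duct-like and 4.45 ± 3.18% in ionocyte-like cells, at medians of 24017 and 17103 UMIs, deeper than the untreated cells of the same classes.

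**Figure D2:**
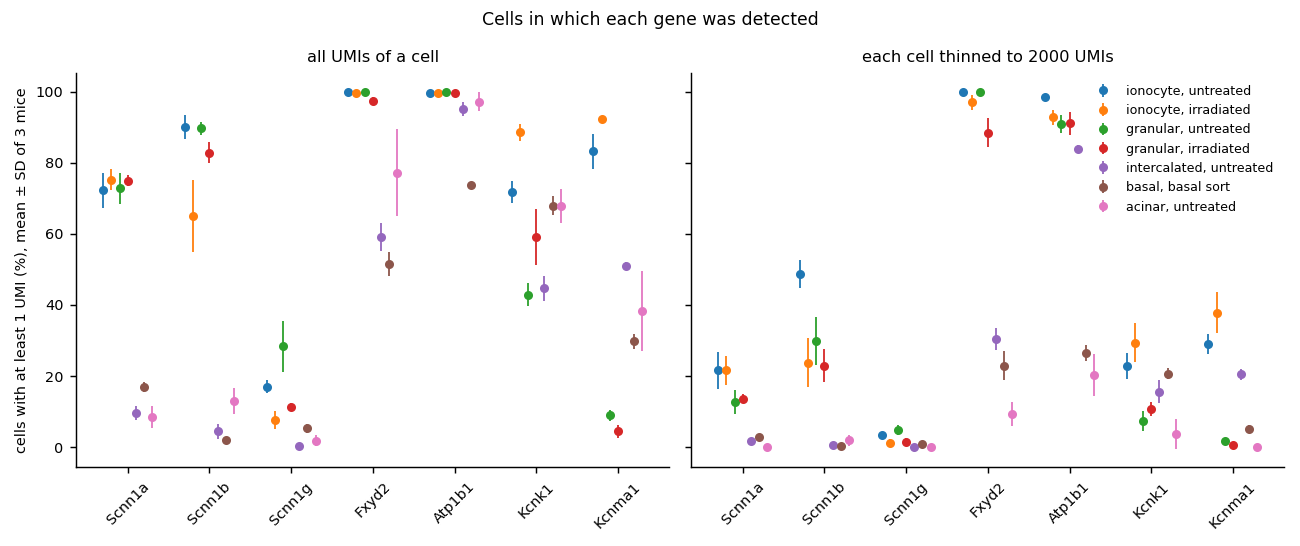
Share of cells with at least 1 UMI of each gene (vertical axis, percent, mean ± SD of 3 mice) in 7 classes and groups, with all UMIs of a cell (left) and with each cell thinned to 2000 UMIs (right). Scnn1b was found in 90.2% of untreated ionocyte-like cells before and 48.7% after thinning, while acinar-like cells fell from 12.9% to 1.88%.

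Likeness of pattern was measured as Pearson's r of log2(CPM + 1) over 35 sums of a class and mouse, among 7114 genes with a mean of at least 10 CPM. The sums share libraries, mice and depth, so r is a description. Scnn1a and Fxyd2 were each other's most alike gene (r = 0.945). Scnn1b was most like Atp6v0d2 (0.944), a proton pump subunit that was among the ionocyte markers, then Tspan1 (0.944) and Cwh43 (0.943). Scnn1g was most like Spire1 (0.858) and next Scnn1b (0.840), its neighbour on the chromosome, and Atp1b1 was most like Ckmt1 (0.934), a mitochondrial creatine kinase. Kcnk1 was most like Irx5 (0.899) and Kcnma1 most like Ltbp2 (0.923). The potassium channel genes were closer to each other (0.773) than to any of the ENaC or pump genes, with r between 0.202 and 0.578 for Kcnk1 and between 0.0104 and 0.435 for Kcnma1.

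The comparison of the basal sort with the untreated whole epithelium asks how far the sodium machinery is shared by the basal compartment. UMIs of all kept cells were summed per mouse and tested with edgeR's quasi-likelihood test after TMM scaling, with Benjamini-Hochberg adjustment over the 12884 genes tested. Of the 7 members 6 were lower and 1 was higher in the basal sort. Of all genes tested 36.4% were lower and 36.6% higher, so that about as many genes passed in each direction. A sum over all cells follows the mix of cell types, so fewer cells of a type and less RNA per cell cannot be told apart in it. The same holds for the sums over all cells of the irradiated library.

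Scnn1b had the widest gap, with 3.86, 4.57 and 3.496 CPM in the basal sort against 127, 103 and 105 CPM in the untreated whole epithelium. This was a log2 fold change of -5.33 ± 0.13 (SE, TMM scale, edgeR adjusted p = 1.11e-08). Fxyd2 stood at 351 ± 44.7 against 4285 ± 430 CPM (-4.11 ± 0.10), and Atp1b1 at 299.8 ± 58.9 against 1198 ± 97.1 (-2.50 ± 0.13). Scnn1a was lower by less (-1.94 ± 0.09), and its fold was -1.29 under a stricter cell filter (a minimum of 1000 genes and a mitochondrial share of up to 10%). Scnn1g (-1.61 ± 0.21) and Kcnma1 (-1.25 ± 0.12) had the least negative folds of the 6.

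Kcnk1 ran the other way, with 134, 124 and 123 CPM in the basal sort against 70.2, 54.1 and 68.0 CPM (log2 fold change 0.49 ± 0.10, edgeR adjusted p = 0.00143). The mice of the groups did not overlap for any of the 7 genes. On plain CPM the median gene stood 0.50 higher in the basal sort than on the TMM scale, where the 20 most abundant genes took 16.6 ± 0.569% of the UMIs against 48.7 ± 2.15% in the untreated whole epithelium. Kcnk1 was higher and the other 6 lower on both scales.

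Over the rest of the pathway, all 13 carriers that passed, of 15 tested, were lower in the basal sort, among them Bsnd (-7.51 ± 0.29) and the cotransporter Slc12a2 (-3.92 ± 0.27). Of 10 other potassium channels and BK partners 8 were lower, among them Kcnn4 (-5.32 ± 0.24), Lrrc26 (-3.93 ± 0.45), a BK partner, and Kcnk5 (-3.14 ± 0.13), and 2 were higher. Of 18 ENaC regulators 9 were lower, as with the channel-activating protease Prss8 (-2.30 ± 0.12), and 8 were higher, as with the scaffold Cnksr3 (2.09 ± 0.11). Of the 8 pump genes tested 3 were higher, among them the beta subunit Atp1b3 (0.42 ± 0.11), and 2 were lower. Median log2 fold changes were -1.99 for the carriers, -2.95 for the potassium channels, -0.37 for the ENaC regulators and 0.12 for the pump genes, against -0.01 over all genes. The shares over all genes were 36.4% lower and 36.6% higher. Of the 12 immediate-early genes induced by dissociation 10 were lower in the basal sort (median -1.06), and their part in these differences was not tested.

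Irradiated and untreated whole epithelium were compared over all kept cells and within each class that held at least 20 cells of each of the 6 mice, which were the granular duct-like and ionocyte-like cells. This comparison asks what differs in the glands 90 days after the dose. The comparisons below share the untreated mice with each other and with the basal comparison, so agreement between them is not independent.

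Over all kept cells, 2 of the 7 members passed, both lower, where 19.7% of 11873 genes were lower and 20.7% higher. Scnn1g held 5.74, 5.72 and 6.42 CPM in irradiated against 8.55, 9.01 and 9.57 CPM in untreated mice, with no overlap (log2 fold change -0.91 ± 0.13, TMM scale, edgeR adjusted p = 0.000797). Fxyd2 held 3465, 4399 and 4561 against 4775, 4114 and 3968 CPM, and the mice overlapped (-0.35 ± 0.12, adjusted p = 0.0490). Fxyd2 lost its call without any 1 of 5 of the 6 mice (irradiated mice 1 and 2 and each untreated mouse), and under the stricter cell filter its fold change was 0.31 (adjusted p = 0.0910), while Scnn1a (0.82 ± 0.11) and Scnn1b (0.46 ± 0.11) then passed as higher. Folds of the others were 0.20 ± 0.08 for Scnn1a (adjusted p = 0.0823), 0.16 ± 0.13 for Kcnma1, 0.03 ± 0.15 for Kcnk1, -0.08 ± 0.09 for Atp1b1 and -0.11 ± 0.11 for Scnn1b. On plain CPM the median gene stood 0.30 higher in irradiated mice than on the TMM scale, and the ratios of Atp1b1 (0.22 on the log2 scale) and Scnn1b (0.18) then had the opposite sign.

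In ionocyte-like cells 6 of the 7 members passed, 4 lower and 2 higher, where 11.0% of 8942 genes were lower and 15.5% higher. These cells were cluster 16 in the untreated and cluster 21 in the irradiated library. The ENaC beta and gamma genes and both pump genes fell, whereas both potassium channel genes rose.

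Scnn1b held 118, 179 and 161 CPM in irradiated and 341, 290.4 and 311 CPM in untreated ionocyte-like cells, a fall by 0.95 ± 0.13 on the log2 TMM scale (edgeR adjusted p = 6.72e-05). Scnn1g held 5.72, 7.82 and 4.28 against 17.4, 15.7 and 18.05 CPM (-1.32 ± 0.25, adjusted p = 0.00139). Neither gene had overlapping mice. Scnn1g was seen in few of these cells, with at least 1 UMI in 7.59 ± 2.64% of irradiated and 16.9 ± 1.80% of untreated ones. Scnn1a held 92.5, 105 and 106 against 120, 139 and 122 CPM (-0.27 ± 0.10, adjusted p = 0.0651). Its mice did not overlap, and the adjusted p was 0.0495 with secreted and mitochondrial genes left out of the totals.

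Fxyd2 held 5983, 7188 and 7944 CPM in irradiated against 11228, 11078 and 10630 CPM in untreated ionocyte-like cells (-0.60 ± 0.08, adjusted p = 8.70e-05). Atp1b1 held 1491, 1566 and 1567 against 2206, 2110 and 2191 CPM (-0.45 ± 0.06, adjusted p = 5.70e-05). These are falls in the share of a cell's RNA. Counted as UMIs per cell, Fxyd2 stood at 124 ± 24.0 in irradiated and 123 ± 3.88 in untreated ionocyte-like cells, and Atp1b1 at 27.0 ± 2.26 and 24.4 ± 0.772, while the median cell held 17003 UMIs against 11125. Scnn1b was lower on that scale too, at 2.69 ± 0.658 against 3.53 ± 0.317 UMIs per cell, with no overlap between mice. Both libraries were sequenced separately, so depth and RNA content per cell cannot be told apart.

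The potassium channel genes rose on both scales. Kcnma1 held 227, 233 and 243 CPM in irradiated against 187, 179 and 194 CPM in untreated ionocyte-like cells (0.37 ± 0.08, adjusted p = 0.00406), and 4.10 ± 0.367 against 2.10 ± 0.0920 UMIs per cell. Kcnk1 held 152, 192 and 179 against 135, 139 and 132 CPM (0.43 ± 0.10, adjusted p = 0.00693), and 3.06 ± 0.502 against 1.52 ± 0.0318 UMIs per cell. The mice did not overlap for either gene. Kcnk1 lost its call without irradiated mouse 2 (0.32 ± 0.12, adjusted p = 0.0737) and under the stricter cell filter of 1000 genes and 10% mitochondrial UMIs (0.37 ± 0.15, adjusted p = 0.104), which left between 30 and 34 untreated ionocyte-like cells per mouse.

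Other measures moved with these differences. In ionocyte-like cells the mitochondrial share was 12.6 ± 0.0726% in untreated and 6.16 ± 0.508% in irradiated mice, and the summed immediate-early genes 14902 ± 3864 and 9047 ± 425 CPM. All 9 ionocyte markers summed to 2723 ± 66.9 CPM in untreated and 3268 ± 568 in irradiated mice (range 2845 to 3914). The acinar markers summed to 2532 ± 187 and 34.5 ± 1.13 CPM, the granular duct markers to 5000 ± 774 and 2610 ± 430, the luminal duct markers to 3487 ± 226 and 7109 ± 448, and the fibroblast markers to 59.7 ± 30.8 and 362 ± 142, with 3 and 4 of 6 fibroblast markers at 0. Their part in the changes of the 7 genes was not tested.

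In granular duct-like cells 4 of the 7 members passed, all lower, where 19.3% of 9418 genes were lower and 20.6% higher. These cells were cluster 18 in the untreated library and clusters 11 and 12 in the irradiated one.

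Scnn1g held 5.24, 5.05 and 6.00 CPM in irradiated and 13.6, 22.0 and 27.1 CPM in untreated granular duct-like cells, a fall by 2.02 ± 0.26 on the log2 TMM scale (edgeR adjusted p = 7.17e-05). Fxyd2 held 3328, 3726 and 3452 against 7076, 6137 and 5702 CPM (-0.90 ± 0.11, adjusted p = 3.69e-05), and its UMIs per cell were 94.4 ± 8.64 against 125 ± 13.5 although the irradiated cells were deeper. Neither gene had overlapping mice, and both calls held in each alternative that could be fitted for them, 16 for Scnn1g and 17 for Fxyd2.

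Scnn1b held 123, 132 and 133 against 181, 179 and 199.6 CPM (-0.59 ± 0.11, adjusted p = 0.00136), with no overlap. This call rested on cluster 11, the irradiated cells with a part of the granular duct markers: without it, over 6, 47 and 43 irradiated cells, the fold change was 0.00 ± 0.14 (adjusted p = 0.99). The first of these mice is below the minimum of 20 cells set for a class. In the same setting the fold changes of Atp1b1 (-0.87 ± 0.13) and Scnn1a (-0.52 ± 0.17) passed, whereas over the whole class Atp1b1 had -0.27 ± 0.12 (adjusted p = 0.0889) and Scnn1a -0.22 ± 0.13 (adjusted p = 0.186), with overlapping mice. Kcnk1 held 36.7, 57.2 and 47.9 against 43.2, 33.1 and 40.6 CPM and did not pass (0.25 ± 0.17, adjusted p = 0.260).

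Kcnma1 was lower in irradiated granular duct-like cells, at 1.31, 3.64 and 1.90 against 4.92, 6.85 and 6.15 CPM (-1.25 ± 0.35, adjusted p = 0.0136). Its level there is that of 0.0614 ± 0.0313 and 0.118 ± 0.0194 UMIs per cell in irradiated and untreated mice. With predicted doublets kept, the fold change was -0.27 ± 0.38 (adjusted p = 0.603), and without untreated mouse 2 it was -1.13 ± 0.44 (adjusted p = 0.0776). Under the stricter cell filter it was -3.13 ± 0.33, the far end of the range over 16 alternatives, of which 14 passed. Summed ionocyte markers in granular duct-like cells were 182 ± 11.98 CPM in untreated and 250 ± 43.6 in irradiated mice, the luminal duct markers 4159 ± 490 and 9630 ± 480, the acinar markers 1714 ± 176 and 719 ± 294, and the immediate-early genes 20118 ± 4329 and 3790 ± 367 CPM. The mitochondrial share was 10.2 ± 0.508% and 4.11 ± 0.474%. The part of these differences in the falls of the 4 genes was not tested.

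**Figure D3:**
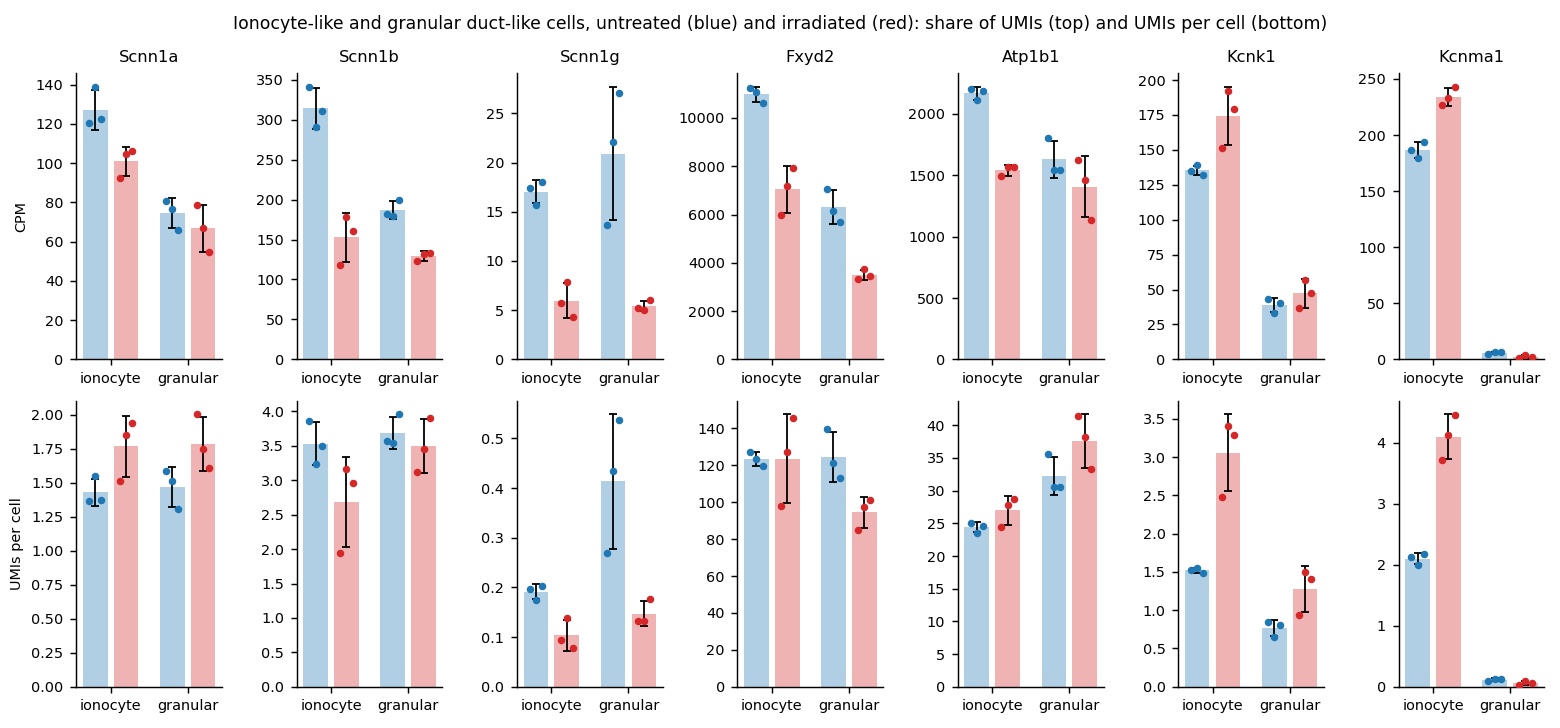
Level of each gene in ionocyte-like and granular duct-like cells of untreated (blue) and irradiated (red) mice, as CPM (top row) and as UMIs per cell (bottom row); bars are means from 0, error bars the SD, points the 3 mice. In ionocyte-like cells Fxyd2 falls from 10978 to 7038 CPM while its UMIs per cell stay at 123 and 124, and Kcnma1 rises from 187 to 234 CPM and from 2.10 to 4.10 UMIs per cell.

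Whether irradiated and untreated mice differed by unlike amounts in ionocyte-like and granular duct-like cells was tested as the interaction of class and irradiation. A block per mouse was fitted, over 12 sums of 6 mice. Each group is 1 library, and each class was made of different clusters in them, with irradiated granular duct-like cells mostly from cluster 11. Dose, library and cell state therefore cannot be told apart in this test, which was not run without cluster 11. Of the 7 members 1 passed, Kcnma1, where 6.16% of 9973 genes had a higher and 9.31% a lower effect in ionocyte-like cells. The effect on Kcnma1 was higher by 1.60 ± 0.32 on the log2 scale in ionocyte-like than in granular duct-like cells (edgeR adjusted p = 0.00134). It was 0.65 ± 0.34 (adjusted p = 0.224) with predicted doublets kept and 3.73 ± 0.31 under the stricter cell filter, the ends of the range over 13 alternatives, of which 12 passed, and 1 of its sides is the low granular duct-like level above. The difference was -0.40 ± 0.15 for Scnn1b (adjusted p = 0.0752), 0.28 ± 0.11 for Fxyd2 (0.0934), 0.66 ± 0.36 for Scnn1g (0.239), -0.18 ± 0.13 for Atp1b1 (0.394), 0.16 ± 0.16 for Kcnk1 (0.568) and -0.03 ± 0.16 for Scnn1a (0.928).

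**Figure D4:**
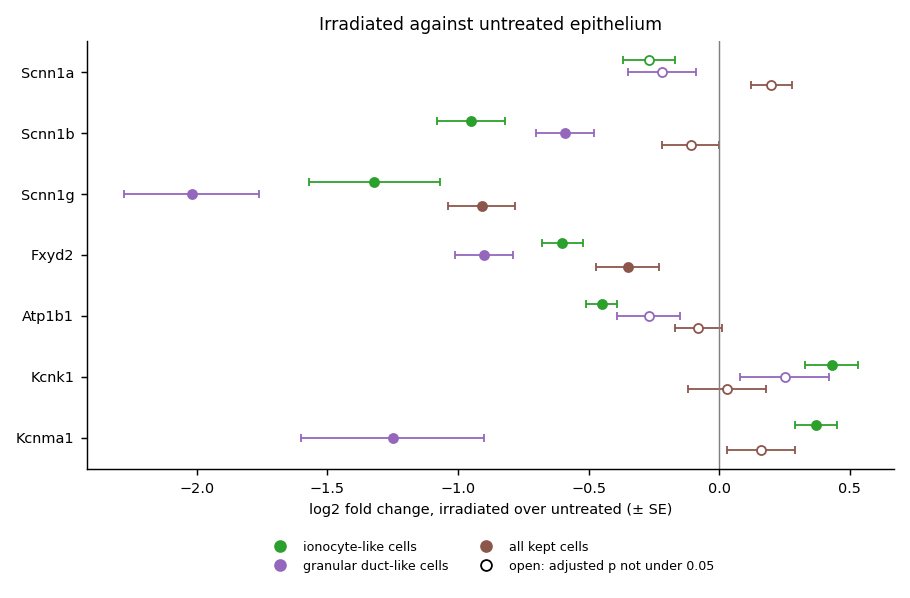
Log2 fold change, irradiated over untreated, of each gene (TMM scale, horizontal axis; bars are the SE) in ionocyte-like cells, granular duct-like cells and all kept cells; filled points passed an adjusted p of 0.05. Scnn1g passed in all 3, from -0.91 to -2.02, and Kcnma1 lies at 0.37 in ionocyte-like and -1.25 in granular duct-like cells.

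Among the other genes of the pathway, 4 pump genes were tested in each class. Of these 1 fell in ionocyte-like cells and 2 in granular duct-like cells, where the regulator Fxyd6 went from 13.3 ± 1.55 to 6.62 ± 1.88 CPM (-0.99 ± 0.22, edgeR adjusted p = 0.00401). The median fold over this list was -0.03 and -0.39, against -0.02 over all genes in both classes. Over all genes 11.0% were lower and 15.5% higher in ionocyte-like cells, and 19.3% and 20.6% in granular duct-like cells.

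Of the 16 ENaC regulators tested in ionocyte-like cells, 6 passed, all higher, with a median of 0.11 over the list. Of all genes tested there 15.5% were higher and 11.0% lower. The protease Prss8, which cleaves and activates the channel, rose from 66.5 ± 6.55 to 135 ± 8.91 CPM (1.06 ± 0.11, edgeR adjusted p = 5.64e-06). The kinase Sgk1, which keeps ENaC at the membrane, rose from 47.7 ± 6.43 to 87.4 ± 9.96 CPM (0.96 ± 0.13). The protease St14 (0.59 ± 0.09) and the protease inhibitor Spint1 (0.61 ± 0.09) rose as well.

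In granular duct-like cells 4 of 17 regulators were higher and 5 lower, with a median of -0.15. Of all genes tested there 20.6% were higher and 19.3% lower, so these counts are not far from the shares over all genes. Nedd4l, the ubiquitin ligase that removes ENaC from the membrane, rose from 7.59 ± 1.70 to 76.6 ± 30.6 CPM (3.25 ± 0.29, edgeR adjusted p = 4.89e-06), and St14 rose (1.45 ± 0.11). The clock gene Per1 (-3.00 ± 0.30), which is also one of the immediate responders to steroid hormones, Tsc22d3 (-1.92 ± 0.24), a glucocorticoid-induced gene that raises ENaC, and the deubiquitinase Usp2 (-1.89 ± 0.19) fell. Per1 was low here, with a mean under the minimum of 10 CPM set for naming. In ionocyte-like cells Nedd4l stood at 93.0 ± 8.75 untreated and 95.7 ± 6.51 CPM irradiated, and did not pass (0.10 ± 0.11, adjusted p = 0.536). The effect on Nedd4l differed between the classes by the interaction test (-3.07 ± 0.26, adjusted p = 4.61e-08), as did those on Sgk1 (1.54 ± 0.18) and Tsc22d3 (1.61 ± 0.33).

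Of the other potassium channels and BK partners, 5 were tested in ionocyte-like and 6 in granular duct-like cells. Lrrc26, which lets BK channels open without raised calcium, fell in both classes, from 41.2 ± 9.10 to 27.0 ± 5.19 CPM (-0.64 ± 0.17, edgeR adjusted p = 0.0144) and from 57.7 ± 9.61 to 37.2 ± 0.416 CPM (-0.70 ± 0.14, adjusted p = 0.00164). Kcnj16 also fell in granular duct-like cells (-0.41 ± 0.15), and no other gene of this list passed in either class. The list medians were 0.49 and -0.15. Over all genes 11.0% were lower in ionocyte-like and 19.3% in granular duct-like cells.

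Of the 13 carriers tested in ionocyte-like cells 4 fell and 1 rose. Those that fell included Bsnd (-1.41 ± 0.19), the cotransporter Slc12a2 (-0.41 ± 0.06) and the chloride channel Cftr (-0.44 ± 0.12), and the scaffold Slc9a3r1 rose (0.94 ± 0.09). Of the 12 tested in granular duct-like cells 5 fell, among them Slc12a2 (-2.56 ± 0.30), and 2 rose, among them Slc9a3r1 (0.83 ± 0.12). Immediate-early genes fell beside them in both classes, 10 of 12 in ionocyte-like and 12 of 12 in granular duct-like cells, with medians of -1.06 and -3.23. The shares over all genes were 11.0% lower and 15.5% higher in ionocyte-like cells, and 19.3% and 20.6% in granular duct-like cells.

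Over all kept cells the same lists gave 3 lower and 1 higher of 6 pump genes, 3 lower and 6 higher of 17 ENaC regulators, 2 lower and 4 higher of 9 potassium channels and 7 lower and 3 higher of 16 carriers. Of all 11873 genes tested there 19.7% were lower and 20.7% higher. Kcnn4 (-2.07 ± 0.39) and the chloride channel Ano1 (-2.50 ± 0.14) were among the lower genes, and Kcnq1 (0.93 ± 0.18) and Kcnk5 (0.89 ± 0.17) among the higher. These sums follow the mix of classes, in which 109 acinar-like cells were kept in the untreated and 4 in the irradiated library.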

How the data were processed

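Single-cell counts were analysed as deposited. Per the submitters' processing notes, the authors made them with Cell Ranger 6.1.2 on mm10; the deposited values are whole-number counts of UMIs per gene and cell, with hashtag counts beside them. The read counting parameters are not given in the sources used here.

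Cells with a minimum of 500 genes and a mitochondrial share of up to 20% were assigned to mice with HTODemux (Seurat 5.3.0, 5 starting clusters, quantile 0.99), and doublets by hashtag or Scrublet were removed. Clusters came from 2000 variable genes without the 7 members, 30 principal components, 15 neighbours and Leiden resolution 1 (scanpy 1.11.5). A cluster was named from marker lists, and the classes are rebuilt here. UMIs were summed per mouse and class (at least 20 cells per mouse). Sums were tested with edgeR 4.0.16 (TMM, filterByExpr, the quasi-likelihood test; p-values adjusted by Benjamini-Hochberg across the genes tested; threshold 0.05); DESeq2 1.42.0 was an alternative. Folds are on the TMM scale; levels are plain CPM, the gene's UMIs per 1000000. The edgeR script was run on simulated counts with known changes at 1 fixed dispersion, for every comparison except the interaction.

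Intervals for counts of 0 cover counting error only. Mice were separate animals per the series' design text. The members, gene lists and marker lists were chosen with earlier results of these data known. The class-naming thresholds, the starting clusters of HTODemux and 3 alternatives (all Klk1-rich duct clusters, without the granular duct-like cluster led by Reg3g, cluster 11, cells thinned to 5000 UMIs) were set after seeing the data. Besides the members, up to 4 genes per list were eligible to be named, those with the largest absolute fold past the threshold at a mean of at least 10 CPM. Genes of lists in which 5 or fewer passed, Nedd4l in ionocyte-like cells and Per1 in granular duct-like cells were named after their values were seen. Some genes of the lists are counted but not reported by name here.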

Additional observations from a re-analysis of the deposited data

Results flagged for a closer look

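The effect of irradiation differed between ionocyte-like and granular duct-like cells by the interaction test for 1 of the 7 members and for other genes of the lists. Of all 9973 genes tested 6.16% had a higher and 9.31% a lower effect in ionocyte-like cells, so 1 of 7 is near the share over all genes. No member passed with predicted doublets kept. The limits of cluster and library given for this test hold here too. Differences are given as the effect in ionocyte-like minus that in granular duct-like cells on the log2 scale. Among genes of sodium and potassium transport, Kcnma1 differed by 1.60, the pump regulator Fxyd6 by 1.15, the cotransporter Slc12a2 by 2.14 and Bsnd by 0.74. Among ENaC regulators, Nedd4l differed by -3.07, Per1 by 2.64, Tsc22d3 by 1.61 and Sgk1 by 1.54. Among immediate-early and heat-shock genes, Hspa1a differed by 4.11, Fos by 3.83, Hspa1b by 3.26 and Fosb by 2.53.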

How the results depend on the processing

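Of 514 fold changes of the members under alternatives, 472 kept their direction and their side of the threshold, 15 newly passed, 13 no longer passed and 14 turned direction. Of 357 levels of the members under alternatives 83 moved by more than 1 SD, among them levels with TMM-scaled totals. The count of genes past the threshold was 2711 (main 4790) over all irradiated cells with mice assigned by hashtag share, and in granular duct-like cells 2140 without cluster 11 and 1890 with cells thinned to 5000 UMIs (main 3754). In ionocyte-like cells it was 1486 with DESeq2, 1014 under the stricter cell filter (1000 genes, 10% mitochondrial UMIs), 1253 with thinned cells and 1572 to 2168 with 1 mouse left out (main 2364). For the interaction it was 558 with DESeq2, 662 under the stricter cell filter and 1008 to 1480 with 1 mouse left out (main 1542). Leaving out irradiated mouse 2 gave the lowest count in both. Members past the threshold over all irradiated cells were 1 by hashtag share and 1 to 2 with 1 mouse left out (main 2). For the interaction they were 3 without a filter on low counts, 2 at up to 40% mitochondrial UMIs, 0 with predicted doublets kept and 1 to 2 with 1 mouse left out (main 1). Over all irradiated cells the direction turned for Atp1b1 (0.23 under the stricter cell filter, 0.00 by hashtag share), Scnn1b (0.46 and 0.17), Fxyd2 (0.31, stricter filter) and Kcnk1 (-0.02, stricter filter; -0.11 to 0.20 with 1 mouse left out). In granular duct-like cells it turned for Atp1b1 (0.06 at up to 40% mitochondrial UMIs) and Kcnk1 (-0.11 under the stricter filter, -0.28 over all Klk1-rich duct clusters), and for the interaction of Scnn1a (-0.14 to 0.10 with 1 mouse left out). The cause was not tested.

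With the replicate number as a block, 7 members passed in the basal comparison and 4 in granular duct-like cells. Over all irradiated cells 1 passed, Scnn1g, and Fxyd2 did not (-0.36, edgeR adjusted p = 0.0960). In ionocyte-like cells 7 passed, Scnn1a among them (adjusted p = 0.0443). Same-numbered mice were not shown to be paired: their deviations correlated between -0.19 and 0.0633. Mice assigned by hashtag share were not run for either class or the interaction, nor each library clustered alone for granular duct-like cells and the interaction, because too few cells per mouse were left. After thinning, Scnn1g could not be tested in either class, nor Kcnma1 in granular duct-like cells.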
